A study of Mus musculus with 48 samples.

Results

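The 7 fatty acid binding protein genes on the arrays, Fabp1, Fabp2, Fabp3, Fabp4, Fabp5, Fabp7 and Fabp9, were described in RNA from liver, kidney, hypothalamus, testis and ovary of mice. They are read by 13 of 22626 probe sets, chosen as every probe set whose single symbol in the platform annotation was 1 of the 7 names, and they make up 7 of 12393 genes with a single symbol. Fabp1, Fabp5 and Fabp9 had 2 probe sets each, Fabp4 had 4, and Fabp2, Fabp3 and Fabp7 had 1 each. The probe set with the highest mean intensity stands for its gene, and the others are given beside it.

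The study, whose title names sex-specific transcription, placed 24 RNA samples on 48 arrays of 1 Affymetrix mouse design. The 8 groups were male liver, female liver, male kidney, female kidney, male hypothalamus, female hypothalamus, testis and ovary, with 3 RNA samples in a group and 2 arrays for every RNA sample. The labels describe healthy tissue and name no treatment or altered allele; strain and age are not stated in the labels. Per the labels the RNA was bought, 10 animals were pooled for an RNA sample, and the RNA was polyA-selected except in hypothalamus, where it was total RNA, so that RNA type and tissue cannot be told apart in any comparison with hypothalamus. The molecule field, in contrast, says total RNA throughout. Nothing in the labels says that the 3 RNA samples of a group came from separate animals, so p-values measure the spread between these samples.

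Fatty acid binding proteins are small cytoplasmic proteins that fold into a barrel around a hydrophobic ligand and carry long-chain fatty acids and related lipids between membranes, enzymes and nuclear receptors. Each form is best known from the tissues it is abundant in: Fabp1 in liver and gut, Fabp2 in gut, Fabp3 in heart and skeletal muscle, Fabp4 in adipocytes and some capillary endothelium, Fabp5 in skin and brain, Fabp7 in radial glia and astrocytes, and Fabp9 in the head of developing sperm. On mouse chromosome 3 the RefSeq gene table of assembly GRCm38.p6 lists Fabp5, Pmp2, Fabp9, Fabp4 and Fabp12 in this order, with a lncRNA and a transcribed pseudogene between Fabp5 and Pmp2. Fabp2 also lies on chromosome 3, Fabp1 on 6, Fabp3 on 4 and Fabp7 on 10.

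The RefSeq promoter table of GRCm38.p6, which holds 250 bases before and 50 bases after a gene's start, had 4 of the 7 genes. Promoters are shown for the pair with the highest level in liver, Fabp1 and Fabp2, and for Fabp3, which was at background there. They are written 5′ to 3′ on the strand of the gene, with capitals for the motif matches described next.
Fabp1 (chr6:71199629-71199928, + strand): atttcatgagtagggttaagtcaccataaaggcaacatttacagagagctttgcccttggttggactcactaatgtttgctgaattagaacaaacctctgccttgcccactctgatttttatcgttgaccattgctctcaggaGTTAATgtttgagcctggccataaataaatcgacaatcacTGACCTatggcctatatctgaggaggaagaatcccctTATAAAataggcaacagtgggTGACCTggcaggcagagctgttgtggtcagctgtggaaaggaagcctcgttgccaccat
Fabp2 (chr3:122894822-122895121, + strand): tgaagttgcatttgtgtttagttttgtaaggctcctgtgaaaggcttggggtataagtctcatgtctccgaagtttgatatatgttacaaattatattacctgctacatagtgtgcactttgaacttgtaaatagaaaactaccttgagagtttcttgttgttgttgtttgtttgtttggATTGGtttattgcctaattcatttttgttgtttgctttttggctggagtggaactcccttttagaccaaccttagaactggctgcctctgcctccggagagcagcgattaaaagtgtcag
Fabp3 (chr4:130308488-130308787, + strand): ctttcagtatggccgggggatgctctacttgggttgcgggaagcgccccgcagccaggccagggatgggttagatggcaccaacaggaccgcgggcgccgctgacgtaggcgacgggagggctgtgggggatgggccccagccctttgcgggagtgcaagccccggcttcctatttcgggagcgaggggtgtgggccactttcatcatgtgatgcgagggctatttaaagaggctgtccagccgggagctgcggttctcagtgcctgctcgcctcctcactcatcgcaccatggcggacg
Both strands were searched for 7 motifs: TATAAA (core promoter box), AGGTCA (nuclear receptor half-site), TGTTTAC (FOXA core), GTTAAT (HNF1 half-site), CCAAT (bound by NF-Y), TGGGAA (RBPJ core) and the PPAR direct repeat, which is AGGTCA repeated after 1 free base and so overlaps the half-site. Positions are those of a match's leftmost base, counted from the start. The Fabp1 promoter held TATAAA at -30, GTTAAT at -107 and AGGTCA on the minus strand at -67 and -9. The Fabp2 promoter held CCAAT on the minus strand at -70, and none of the other 6 motifs. The Fabp3 promoter, with 65% G and C against 45% in Fabp1 and 38.67% in Fabp2, held none of the 7. The Fabp7 promoter (54% G and C) held AGGTCA at -171, CCAAT at -126 and -56 and TGGGAA at -249, all on the minus strand. Of 32851 promoters of this length, 13.6% held TATAAA, 16.3% AGGTCA, 3.65% TGTTTAC, 7.1% GTTAAT, 37.4% CCAAT, 25.6% TGGGAA and 0.0396% the direct repeat. These matches describe the letters only.

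Each tissue's own markers matched its label: the 5 to 6 measured markers of a tissue were all above the filter level in that tissue, and their sum was highest there. The filter level is the 40th percentile of an RNA sample, 110.06 to 185.54 in scaled intensity over the 24 RNA samples, and a gene below it is called at background here. Markers of other organs were seen too. All 6 measured exocrine pancreas markers were above the filter level in liver, with sums of 7266 to 36012, beside 2379 to 4726 in kidney. The sum of 4 steroid cell markers was 1734, 1660 and 178 in female kidneys 1, 2 and 3, and 338 to 767 in male kidneys. It was 1244 in male liver 2 and 147 to 448 in the other livers. The part of such tissue in the values below was not tested. Some RNA samples stood apart from the others of their group. Number 1 of liver and of kidney, in both sexes, had lower sums of 4 MHC class II genes (7454 to 11717 in scaled intensity) than numbers 2 and 3 (33622 to 49044). Testis 3 had a lower sum of 7 spermatid genes (79240) than testis 1 and 2 (109269 and 107795). Results that rest on these RNA samples are given with and without them where they changed. In kidney, and less clearly in liver and hypothalamus, RNA samples with the same number deviated together across the sexes. A fit with the number as a block is given where it changed a call. All values below are scaled intensities, and a difference is in log2(scaled intensity + 48.3), which understates the ratio of dim genes. Levels of different genes are not compared, since probe sets differ in brightness.

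**Figure D1:**
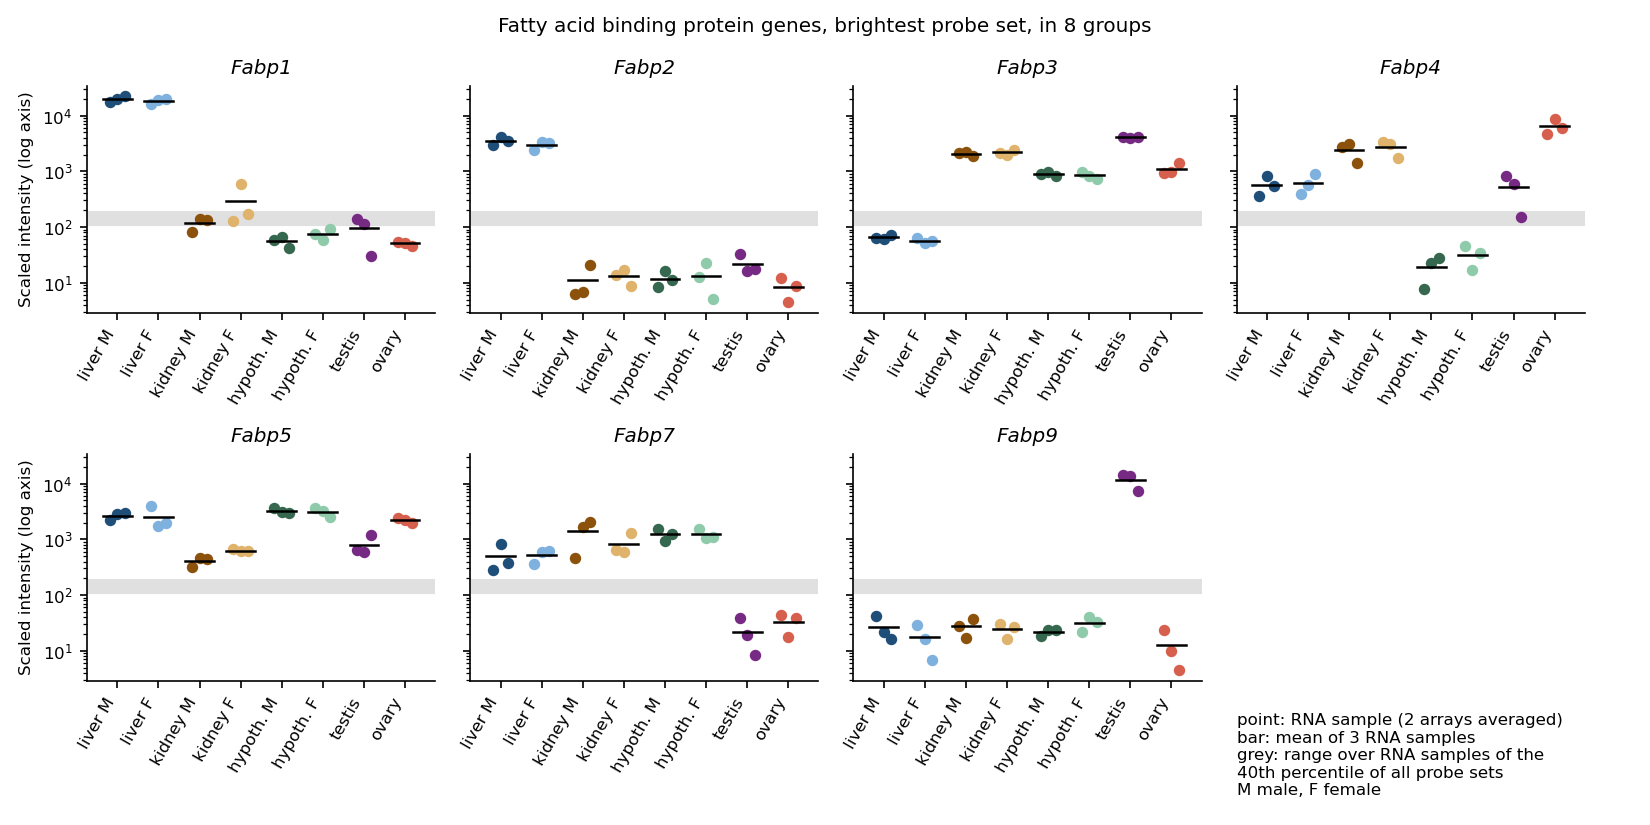
Scaled intensity (log axis) of the brightest probe set of each gene in the 8 groups; a point is 1 RNA sample (2 arrays averaged), a bar is the mean of 3, and the grey band is the range of the filter level over the RNA samples. Fabp1 and Fabp2 are far above the band in liver, Fabp9 in testis, and Fabp4 is highest in ovary (4723 to 8698), while Fabp3, Fabp5 and Fabp7 are above the band in 3 or more tissues.

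Fabp1, the liver form, which also binds bile acids, was highest in liver. Its intensity was 17546, 19663 and 22214 in the 3 male livers and 16136, 19383 and 19651 in the 3 female livers, so the sexes overlapped. Kidney came next, with 81.0, 137 and 132 in males and 129, 596 and 168 in females, where female kidney 2 was far above the other 5. Liver exceeded kidney by 6.45 ± 0.24 (SE; adjusted p = 1.05e-16, limma on the 8 group means of 24 RNA samples), a 92.2-fold ratio of mean intensities. The kidney mean in this ratio was 207 with female kidney 2 included, while the kidney median was 134, near the filter level. In testis the values were 141, 114 and 30.4, with 1 of 3 above the filter level. Hypothalamus (41.3 to 91.6, median 62.6) and ovary (53.1, 52.7 and 46.3) were at background. Taking the filter level as the value of a dim RNA sample, liver was at least 110-fold above hypothalamus and at least 120-fold above ovary.

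The order of Fabp1 below liver was less certain. Kidney exceeded testis by 0.70 ± 0.29 (limma adjusted p = 0.0347), with overlapping values. The adjusted p was 0.357 without testis 3, 0.0829 without female kidney 2, 0.0627 without male kidney 2, 0.0574 without male kidney 3, 0.0544 with the replicate number within tissue as a random block and 0.134 when only kidney and testis were fitted. The neighbours below testis did not pass the test (limma adjusted p = 0.393 for testis and hypothalamus and 0.648 for hypothalamus and ovary). The second probe set was above the filter level in 1 of 6 kidney and 0 of 3 testis samples, so it gives no order between kidney and testis. It followed the first with r = 0.997 over the 24 RNA samples, which share arrays, and it too was highest in female kidney 2 among the kidneys (272, against 22.8 to 64.9 in the other 5).

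Fabp2, the intestinal form, was above background in liver alone. Male livers had 2968, 4080 and 3559 and female livers 2442, 3361 and 3232. The other 18 RNA samples lay between 4.45 and 32.7, all at background, so liver was at least 27.6-fold above testis, 25.8-fold above kidney, 20.5-fold above ovary and 18.8-fold above hypothalamus. Since it passed the filter through liver alone, no test is given, and no order among the 4 dim tissues. Of 5 measured genes of an intestinal epithelium list, 1 was above the filter level in liver, Apoa4, an apolipoprotein that liver also makes (3443 to 5476). Vil1, which encodes villin of the brush border, was at background in liver (6.61 to 37.7) and at 1492 to 1845 in kidney.

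Fabp3, the heart and muscle form, was highest in testis and at background in liver. It measured 4074, 3982 and 4136 in testis, a narrow range. Kidney had 2095, 2264 and 1901 in males and 2170, 1977 and 2416 in females. Testis exceeded kidney by 0.92 ± 0.12 (limma adjusted p = 6.37e-07) and kidney exceeded ovary by 0.94 ± 0.12 (limma adjusted p = 9.51e-07), in both cases with no overlap. Ovary had 935, 970 and 1405, and hypothalamus ranged from 722 to 977 with a median of 869. Ovary 3 was above every hypothalamus sample, and the other two ovaries lay inside the hypothalamus range.

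Ovary exceeded hypothalamus in Fabp3 by 0.31 ± 0.12 (limma adjusted p = 0.0331). Without ovary 3 the difference was 0.13 and the adjusted p 0.388. The adjusted p was 0.0701 without male hypothalamus 3, 0.0814 without female hypothalamus 3, 0.0589 with the random block and 0.0652 when only these 2 tissues were fitted. Liver, at 51.9 to 72.9, was below every other tissue, and testis was at least 33.6-fold above it. Of 8 striated and heart muscle markers, the number above the filter level was 0 in kidney, 1 in testis, 1 in ovary, 2 in male liver, 2 in female liver, 1 in male hypothalamus and 3 in female hypothalamus. Their summed level was 650 to 691 in testis, 317 to 522 in kidney, 720 to 800 in ovary and 506 to 753 in liver. Female hypothalamus 1 had the highest sum (2532), with Acta1, skeletal actin, at 1148 there. Its Fabp3 value was 967, beside 841 and 722 in female hypothalamus 2 and 3. The highest Fabp3 of hypothalamus was in male hypothalamus 2 (977), where the muscle sum was 932. The part of muscle in the Fabp3 values was not tested.

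Fabp4, the adipocyte form, was highest in ovary. It measured 4723, 8698 and 6007 there. Kidney had 2766, 3144 and 1428 in males and 3303, 3102 and 1757 in females, with number 3 the lowest in each sex. Ovary exceeded kidney by 1.33 ± 0.36 (limma adjusted p = 0.00341), and the lowest ovary was above the highest kidney. Liver (368, 811 and 556 in males, 399, 576 and 898 in females) was below every kidney, by 2.03 ± 0.30 (limma adjusted p = 3.94e-06). Testis had 828, 598 and 152, so testis 3 was far below the other two.

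Liver and testis did not pass the test for Fabp4 (liver higher by 0.35 ± 0.36, 95% interval -0.40 to 1.11, limma adjusted p = 0.393), and without testis 3 the difference turned to -0.29. Hypothalamus was at background (7.85 to 45.8), below testis by 2.75 ± 0.36 (limma adjusted p = 3.98e-07), and ovary was at least 37.2-fold above it. The 4 probe sets of Fabp4 did not behave alike. The second probe set correlated with the first at r = 0.988 and the dimmest at r = 0.725 over the 24 RNA samples. In the dimmest, liver (18.5 to 63.4) and testis (17.3 to 45.2) were at background, as was hypothalamus (16.9 to 65.8). The third correlated at 0.182 and lay between 74.1 and 180 in every group, so it shows little of the pattern.

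The summed level of adipocyte markers was highest in ovary, as Fabp4 was, but higher in testis than in kidney, against the order of Fabp4. Of 8 listed genes 5 were measured, and 4 of the 5 were above the filter level in ovary, 3 in kidney, 3 in testis, 2 in liver and 2 in hypothalamus. Their summed level was 8113, 12256 and 8805 in ovary, highest in the RNA sample with the highest Fabp4, and 1475 to 2467 in kidney. Number 3 was the lowest kidney of its sex, as it was for Fabp4. In males, however, its sum was close to that of number 1 (1546, 2467 and 1475), while its Fabp4 was well below. In testis the sum was 2758 to 3101, in liver 527 to 652 and in hypothalamus 518 to 684. Adipoq, which encodes the adipocyte hormone adiponectin, was 4816, 6507 and 5006 in ovary, 556 to 1401 in kidney, 1161, 768 and 381 in testis, 24.7 to 123 in liver and 4.65 to 19.7 in hypothalamus. The sum in testis was carried by Lipe, a hormone-sensitive lipase of fat and steroid-making cells (1495 to 2079). The summed level of 8 endothelial markers was 3650 to 4318 in ovary, 4133 to 5132 in kidney, 2789 to 3074 in liver, 1734 to 2077 in hypothalamus and 1056 to 1312 in testis. In pooled tissue RNA, more cells of a type and more RNA per cell cannot be told apart, and the part of either cell type in the Fabp4 values was not tested.

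**Figure D2:**
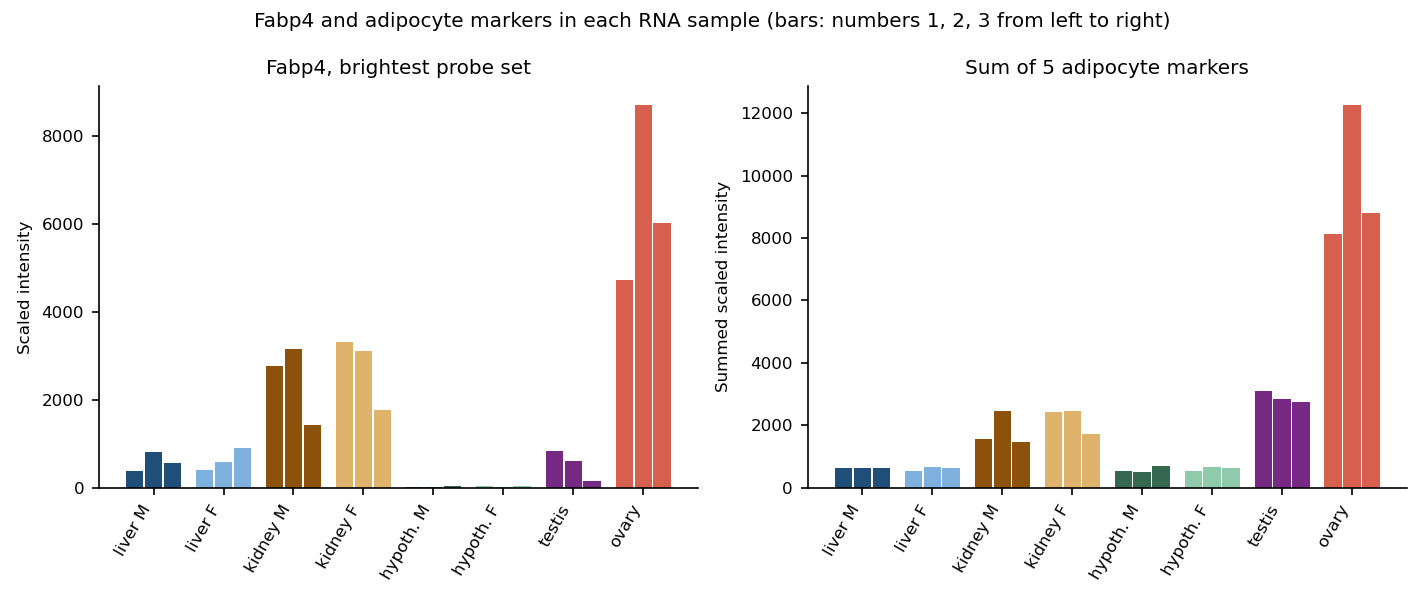
Scaled intensity of the brightest Fabp4 probe set (left) and summed scaled intensity of 5 adipocyte markers (right) in each RNA sample, bars in the order of numbers 1, 2 and 3 within a group and axes from 0. Ovary is highest in both panels (Fabp4 4723 to 8698, marker sum 8113 to 12256), hypothalamus and liver have low marker sums (518 to 684), and testis has a higher marker sum than liver with overlapping Fabp4 values.

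Fabp5, the epidermal form, which is also found in brain and immune cells, was the one gene of the 7 above the filter level in all 24 RNA samples. Hypothalamus (2486 to 3666, median 3177), liver (1772 to 3951, median 2511) and ovary (2395, 2226 and 1959) overlapped. Hypothalamus exceeded liver by 0.33 ± 0.18 (95% interval of liver minus hypothalamus -0.69 to 0.04, limma adjusted p = 0.0981). Female liver 1, at 3951, was above every other liver. Without it hypothalamus exceeded liver by 0.50 (limma adjusted p = 0.00512), and without number 1 of liver and kidney by 0.44 (limma adjusted p = 0.0142).

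Quantile normalization also brought the Fabp5 difference between liver and hypothalamus past the threshold (-0.67, limma adjusted p = 0.000587), while centring each array on its median turned it to 0.14. Liver and ovary differed by 0.20 ± 0.22 (95% interval -0.25 to 0.65, limma adjusted p = 0.432), which became 0.60 (limma adjusted p = 0.0239) under median centring and -0.032 under quantile normalization. Median centring moved the median of all tested probe sets by 0.35 between liver and hypothalamus and by 0.31 between liver and ovary, so the order of these 3 tissues depends on the scaling. Below them came testis (650, 598 and 1173), which ovary exceeded by 1.44 ± 0.25 (limma adjusted p = 2.12e-05), and then kidney.

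Kidney had the lowest Fabp5, 321 to 672 with a median of 533. Testis exceeded it by 0.56 ± 0.22 (limma adjusted p = 0.0237), with overlapping values. The adjusted p was 0.276 without testis 3, 0.0555 without male kidney 1 and 0.0595 with the random block. The second Fabp5 probe set followed the first with r = 0.990 over the 24 RNA samples. Unlike the first, it passed the test between liver and hypothalamus (liver minus hypothalamus -0.62 ± 0.17, limma adjusted p = 0.00274).

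Fabp7, the brain form of radial glia and astrocytes, was high in hypothalamus and kidney. Hypothalamus had 1535, 919 and 1227 in males and 1542, 1055 and 1109 in females. Kidney had 459, 1648 and 2061 in males and 640, 596 and 1288 in females, a wider range that took in every hypothalamus value. The difference was 0.31 ± 0.29 with hypothalamus higher (95% interval of kidney minus hypothalamus -0.92 to 0.29, limma adjusted p = 0.342). It turned in favour of kidney by 0.053 under median centring, by 0.078 without number 1 of liver and kidney and by 0.0059 without male kidney 1.

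Kidney exceeded liver in Fabp7 by 0.93 ± 0.29 (limma adjusted p = 0.00945), with overlap, and liver had 285, 831 and 383 in males and 356, 597 and 620 in females. Number 1 was the lowest of its group in male liver, female liver and male kidney. Liver exceeded ovary by 2.72 ± 0.36 (limma adjusted p = 6.74e-07). Ovary (43.8 at most) and testis (39.0 at most) were at background, at least 7.71-fold and 10.4-fold below hypothalamus. Of 8 astrocyte and radial glia markers, all 8 were above the filter level in hypothalamus, 5 in kidney and 6 in liver. Gfap, the astrocyte filament protein, was at 3238 to 4539 in hypothalamus, 62.2 to 103 in kidney and 123 to 210 in liver, and Slc1a3, a glial glutamate transporter, was at 1364 to 2375, 27.7 to 56.0 and 13.7 to 41.9. Slc1a3 was thus below the filter level in kidney and liver, and Gfap in kidney, while Gfap in liver lay about or above that level. The summed level of the 8 markers was 16464 to 19026 in hypothalamus, 10648 to 12400 in kidney, 13633 to 17545 in liver, 14469 to 16374 in ovary and 2723 to 7127 in testis, so it was high in ovary, where Fabp7 was at background. The part of these cells in the Fabp7 values was not tested.

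Fabp9, the testis form, was above background in testis alone. It measured 14090, 13475 and 7236 there, with testis 3 the lowest, and 4.45 to 41.2 in the other 21 RNA samples. Testis was at least 66.7-fold above hypothalamus, 72.7-fold above ovary, 91.4-fold above kidney and 96.0-fold above liver. Since it passed the filter through testis alone, no test is given. The sum of 7 spermatid and sperm genes was 109269, 107795 and 79240 in testis, lowest in the same RNA sample, and at most 545 elsewhere. The second probe set was far dimmer (231, 324 and 130 in testis, 2.00 to 13.2 elsewhere) with r = 0.986 to the first.

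**Figure D3:**
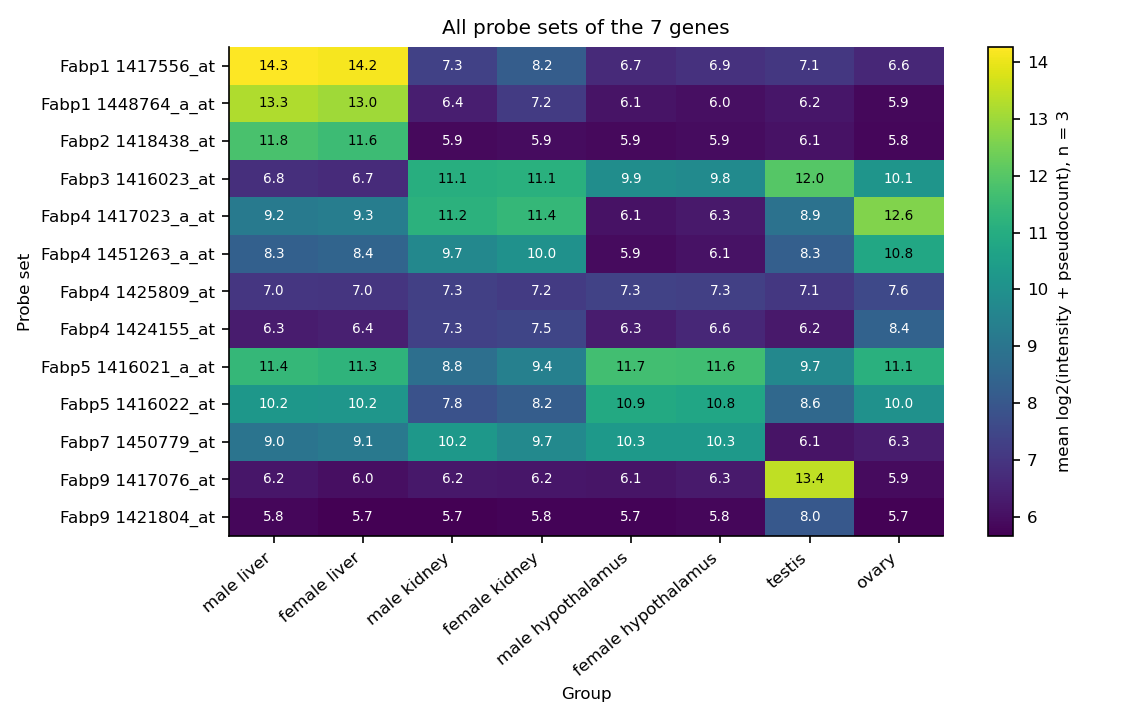
Mean of log2(scaled intensity + 48.3) over 3 RNA samples for each of the 13 probe sets (rows) in the 8 groups (columns), with the value printed in each cell. Probe sets of a gene show the same tissues as high except the third of Fabp4, which varies between 6.99 and 7.57; rows of different genes are not compared.

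In the joint fit of 18092 probe sets, the genes were spread over both directions of each tissue pair. Between liver and kidney 3 of 7 genes (Fabp1, Fabp2 and Fabp5) were higher in liver and 3 (Fabp3, Fabp4 and Fabp7) in kidney, where 53.6% of all tested probe sets were called, 22.2% higher in liver and 31.3% in kidney. Called genes numbered 5 of 7 between liver and hypothalamus (background 76.1%), 6 between liver and testis (72%), 5 between liver and ovary (64%), 4 between kidney and hypothalamus (72.5%), 6 between kidney and testis (70.5%), 5 between kidney and ovary (56.6%), 5 between hypothalamus and testis (74.4%), 4 between hypothalamus and ovary (61.9%) and 4 between testis and ovary (67.6%). These counts are read against the background only, and they hold Fabp2 and Fabp9, which passed the filter through liver alone and testis alone. Of the 3 genes that lie near each other on chromosome 3, Fabp5 was above background in all 5 tissues, Fabp9 in testis alone and Fabp4 in every tissue but hypothalamus.

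The male and female samples were compared within liver, kidney and hypothalamus. No fatty acid binding protein gene passed the test in any of them. Of the 13 probe sets, 8 were tested in liver, 8 in kidney and 4 in hypothalamus, after a filter that asked for 3 RNA samples above the filter level, and limma called 0 in each, beside 0.0506%, 0.231% and 0.0508% of all tested probe sets. With p not adjusted, 0, 1 and 0 lay under 0.05, beside 1.94%, 4.85% and 2.26%.

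In liver the differences of the 5 tested genes, male minus female, were small beside their intervals. Fabp1 differed by 0.11 ± 0.15 (95% interval -0.24 to 0.45), and number by number the male liver was higher in 3 of 3 pairs. Fabp2 differed by 0.23 ± 0.18 (95% interval -0.18 to 0.64), again with the male higher in 3 of 3 pairs. Fabp3 and Fabp9, at background in liver, also had the male higher in 3 of 3 pairs. The pair counts are thus no result about Fabp1 and Fabp2. Fabp4 (-0.11 ± 0.33), Fabp5 (0.13 ± 0.29) and Fabp7 (-0.16 ± 0.36) had wider errors, and each changed sign when 1 RNA sample was left out. Without number 1, Fabp5 differed by 0.62 with male liver higher, and limma's adjusted p was still 0.9995. In hypothalamus Fabp3 differed by 0.10 ± 0.12, Fabp5 by 0.07 ± 0.15 and Fabp7 by -0.02 ± 0.19, all with limma adjusted p of 0.9998.

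In kidney, Fabp5 was the gene with the smallest p. Male kidneys had 321, 459 and 449 and female kidneys 672, 612 and 607, so all 3 females were above all 3 males. Such a separation with females higher was seen in 5.34% of the 13865 tested probe sets. The difference was -0.59 ± 0.17 (95% interval -0.97 to -0.20, unadjusted p = 0.00773, limma adjusted p = 0.612), and the adjusted p was 0.157 with the replicate number as a block. It fell short of the threshold in each of the 17 alternative settings, and without number 1 it was -0.39. The second probe set also had all 3 females (264, 211 and 265) above all 3 males (152, 187 and 211) before rounding, with a difference of -0.36 ± 0.16. Both probe sets read 1 gene in the same RNA samples and are not independent.

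The other kidney differences did not pass the test. Fabp1 differed by -0.84 ± 0.43 (95% interval -1.84 to 0.15), and by -0.27 without female kidney 2. Its female kidney was higher in 3 of 3 pairs of the same number (by 0.45, 1.80 and 0.28), a count not set against all probe sets. Fabp7 differed by 0.53 ± 0.52 (95% interval -0.65 to 1.72), by 1.17 without male kidney 1 and by 0.14 without male kidney 3. Fabp3 (-0.07 ± 0.15) and Fabp4 (-0.18 ± 0.33) differed by less than their errors.

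Whether the male-female difference itself differed between tissues was tested as an interaction over the 18 RNA samples of liver, kidney and hypothalamus. None of the 10 tested probe sets was called in any of the 3 interactions, beside 0.237% (liver minus kidney), 0.0178% (liver minus hypothalamus) and 0.207% (kidney minus hypothalamus) of 16901. With p not adjusted, 1, 0 and 0 lay under 0.05, beside 4.8%, 1.8% and 3.76%. The one was Fabp5, whose difference in liver exceeded that in kidney by 0.72 ± 0.33 (unadjusted p = 0.0450, limma adjusted p = 0.9999).

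**Figure D4:**
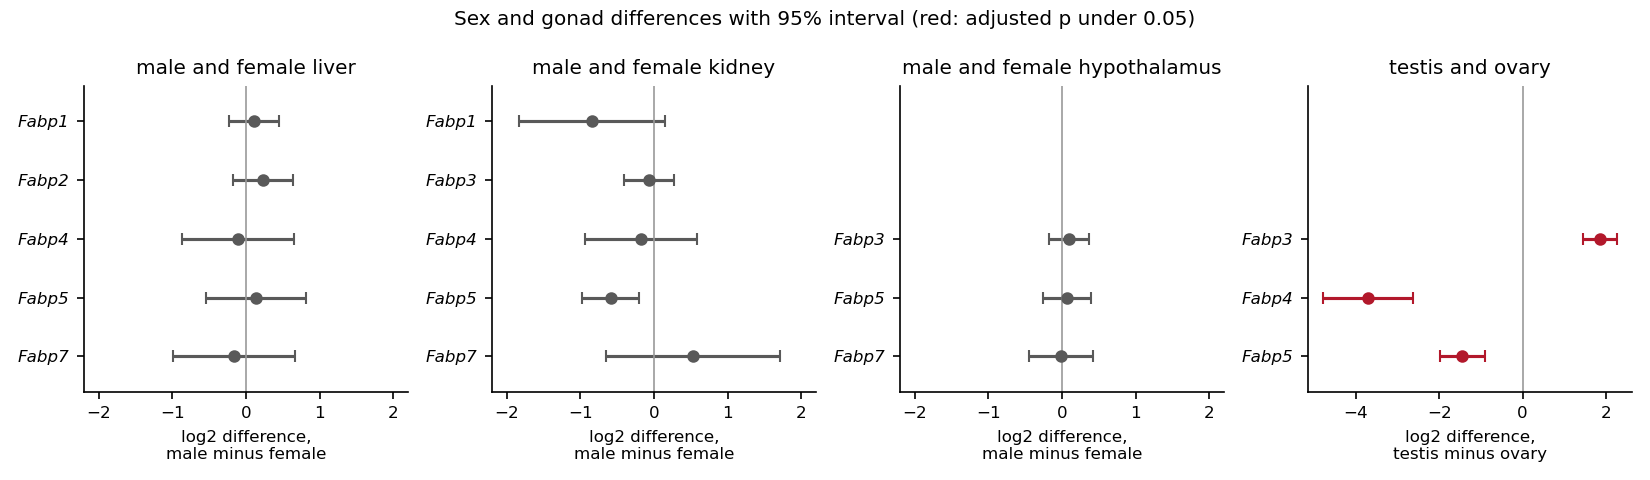
Difference in log2(scaled intensity + 48.3), male minus female (testis minus ovary in the fourth panel, which has its own scale), for the tested genes; points are limma estimates and bars their 95% intervals, in red where the adjusted p was under 0.05. The intervals take in 0 for every gene in liver and hypothalamus and for 4 of 5 in kidney, where Fabp5 (-0.97 to -0.20) is the exception, and Fabp3, Fabp4 and Fabp5 are past the threshold between the gonads, where Fabp9, tested through testis alone, is not drawn.

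Between the gonads, which differ in sex and organ at once, 8 of the 13 probe sets passed the filter and 8 were called, 3 higher in testis and 5 in ovary, where 70.5% of 14957 tested probe sets were called, 24.9% higher in testis and 45.6% in ovary. The count is no result about these genes, since Fabp9 passed the filter through testis alone, and 1 further probe set of Fabp4 through ovary alone. Fabp9 was at least 72.7-fold higher in testis, with no test given, and Fabp3 was higher there by 1.86 ± 0.18 (limma adjusted p = 1.47e-05). Fabp4 was higher in ovary by 3.71 ± 0.48 (limma adjusted p = 8.90e-05) and Fabp5 by 1.44 ± 0.24 (limma adjusted p = 0.000472). In Fabp3, Fabp4 and Fabp5 the 3 values of one gonad lay above the 3 of the other, as did 74.6% of all tested probe sets. Without testis 3 their differences (testis minus ovary) were 1.85, -3.07 and -1.73, with limma adjusted p of at most 1.23e-05. The median of all tested probe sets was -0.34 in this comparison, and median centring moved it by 0.40, which turned no sign among these 3 genes. Fabp1, Fabp2 and Fabp7 were at background in both gonads except for testis 1 in Fabp1.

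The genes with the most similar pattern of log2 values were named for each gene by Pearson r over the 24 RNA samples, among 10081 genes. Pearson r takes no account of the level itself or of the size of the differences. The 24 points share tissues and arrays, and no p is given. Fabp1 was closest to Mtarc1 (r = 0.993), Dpys (0.990) and Cpn1 (0.989), and Fabp2 to Pglyrp2 (0.998), Akr1c6 (0.998) and Otc (0.998), an enzyme of the urea cycle. Fabp3 was closest to Atpif1 (0.974), an inhibitor of the mitochondrial ATP synthase, Efhd1 (0.966) and G6pc3 (0.964). Fabp4 was closest to Tcf21 (0.975), a transcription factor of mesenchymal cells, H2az2 (0.961) and Clic1 (0.943). Fabp5 was closest to St6galnac6 (0.961), Rhou (0.943) and Homer2 (0.941), and Fabp7 to Cltb (0.928), Fn3k (0.925) and Asb13 (0.894). Fabp9 was closest to Pgk2 (0.998), the glycolytic kinase of sperm, Cby2 (0.997) and Dkkl1 (0.997). The values of Fabp7 are the lowest of the 7 at each place.

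Genes that act with fatty acid binding proteins were taken as 5 lists. In male against female liver, kidney and hypothalamus limma called 0 members of any list. With p not adjusted, 3 of 29 tested members lay under 0.05 in kidney, where 4.85% of all tested probe sets did: Cd36, a fatty acid transporter, higher in males by 1.13 ± 0.32 (limma adjusted p = 0.605), Acsl4, an acyl-CoA synthetase, higher in females by 0.54 ± 0.17 (limma adjusted p = 0.691), and Nr1h4, the bile acid receptor, higher in males by 0.82 ± 0.27 (limma adjusted p = 0.713). In hypothalamus there was 1 of 22 (background 2.26%), Nr1h3, and in liver 0 of 28 (1.94%).

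Between testis and ovary, 7 of 7 tested uptake genes were higher in ovary, with a median of -1.94 (testis minus ovary) against -0.34 over all tested probe sets, of which 45.6% were called higher in ovary and 24.9% in testis. They include Lpl, the lipase that frees fatty acids from lipoproteins (-4.31 ± 0.18, limma adjusted p = 8.20e-08), and Cd36 (-2.10 ± 0.22, limma adjusted p = 2.08e-05). Of 6 activation genes, which make or bind acyl-CoA, 2 were higher in testis and 4 in ovary (median -0.82), with Acsl6 among the former. Of 4 nuclear receptors 1 was higher in testis and 2 in ovary (median -0.69), with Pparg, the adipocyte receptor, among the latter. Of 11 lipid storage genes 3 were higher in testis and 6 in ovary (median -0.70), and Plin4, a droplet coat protein of fat cells, differed by -3.51 ± 0.20 (limma adjusted p = 4.73e-07). Of 3 related binding proteins Crabp1 was called higher in testis and Crabp2 and Rbp7 in ovary. Pparg and Crabp2 did not pass the filter in liver or kidney, and testis was not called above either tissue. They are thus taken to have entered through ovary alone, and no test is given for them. Crabp1, Rbp7, Acsl6 and the uptake gene Slc27a3 did not pass the filter in liver or kidney either. They may have entered through 1 gonad alone, and no test is given for them. The counts hold these genes and are no result about the lists.

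Between liver and kidney, where the median of all tested probe sets was -0.05 (liver minus kidney) and 22.2% were called higher in liver and 31.3% in kidney, the lists went both ways. Of 9 uptake genes 2 were higher in liver and 6 in kidney (median -0.63), and Slc27a5, the transport protein of liver that activates bile acids, was higher in liver by 5.67 ± 0.12 (limma adjusted p = 8.54e-21). Of 6 activation genes 2 were higher in liver, Acsl5 (1.75 ± 0.11) and Scp2 (0.81 ± 0.13), and 0 in kidney (median 0.14). Of 7 receptors 4 were higher in liver and 0 in kidney (median 0.75), among them Ppara, the receptor that controls genes of fatty acid oxidation (0.75 ± 0.22, limma adjusted p = 0.00568). Of 11 storage genes 3 were higher in liver and 4 in kidney (median -0.31), with Plin2 higher in liver by 1.98 ± 0.15 and Cidea in kidney by 1.70 ± 0.12. Of 3 related binding proteins 1, Rbp7, was called higher in kidney and 0 in liver (median 0.04). The counts hold Pparg (called higher in liver) and Slc27a3 and Rbp7 (called higher in kidney), which did not pass the filter in either tissue. No order between liver and kidney is read for these 3 genes.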

How the data were processed

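Expression was measured on 48 Affymetrix arrays in 24 RNA samples of 8 mouse groups, grouped by the array titles. For each array the authors deposited a linear intensity for every probe set; how it was summarised is not stated. On all arrays its 2% trimmed mean was 497.31 to 498.77. Precision is limited by the 3 RNA samples in a group. After leaving out 64 control probe sets of 22690, each array was brought to the same 2% trimmed mean, log2(intensity + 48.3, the 20th percentile) was taken, and both arrays of each RNA sample gave 1 mean (r between them 0.966 to 0.990). Probe sets above the 40th percentile of their RNA sample in at least 3 RNA samples were tested with limma 3.58.1 in R 4.3.3 (lmFit, eBayes, Benjamini-Hochberg, threshold 0.05), tested on simulated data first. Sex comparisons used their 6 RNA samples, 10 tissue pairs all 24, and interactions 18. Of all probe sets, 20380 had 1 symbol, 691 several and 1555 none.

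The pairing of numbers was checked: deviations of same-numbered samples correlated at 0.535, 0.139 and 0.482 in liver, 0.591, 0.424 and 0.627 in kidney, 0.392, 0.101 and 0.328 in hypothalamus, and 0.042, 0.146 and 0.042 between the gonads. The highest r between different numbers was 0.286, -0.116, 0.091 and 0.032 in the same order. Numbers thus clearly pair samples in kidney. In liver number 2 lay below the highest other r, and in hypothalamus it was little above it, so pairing is less sure there. "At least" folds divide the bright group's mean by the dim group's mean, with each RNA sample at no less than its filter level. Named genes are the 7 members, the neighbours in each tissue order, the 3 genes most alike, and in the 5 partner lists up to 4 genes with the smallest p per comparison. The single marker genes (Apoa4, Vil1, Acta1, Adipoq, Lipe, Gfap, Slc1a3) lie outside this rule and were chosen after their values were seen, as were the partner genes with an unadjusted p under 0.05 between the sexes (Cd36, Acsl4, Nr1h4, Nr1h3). Members and lists were chosen with earlier results of these data known. Plots used matplotlib 3.10.9 (Python 3.11.15).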

Additional observations from a re-analysis of the deposited data

How the results depend on the processing

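Of 19 called differences of the 7 genes (4 between the gonads and 15 between neighbouring tissues), 16 kept call and direction in every alternative tried (median centring, quantile normalization, 0.25 and 4 times the pseudocount, either array alone, no filter, an intensity trend, the replicate block, other samples in the fit, each RNA sample left out). The other 3 are Fabp1 and Fabp5 between kidney and testis and Fabp3 between ovary and hypothalamus, and 0 reversed. The 19 hold 3 differences, Fabp2 from testis and Fabp9 from hypothalamus and from ovary, that entered through 1 tissue alone and say nothing of stability. Fabp5 between testis and ovary is counted in both kinds, from separate fits, so the 19 are not all distinct. Number 1 of liver and kidney was left out as a choice made after seeing the data. Of 17 differences not called, 2 gained a call, both in Fabp5.

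Counts of called probe sets moved most in the sex comparisons. Liver had 7, and 4 with 4 times the pseudocount, with no filter and without number 1, 11 with the replicate block, 24 with all 8 groups in 1 fit and 4 to 7 leaving out 1 RNA sample. Kidney had 32, and 145 with the replicate block, 132 with all 8 groups, 16 without number 1 and 15 to 53 leaving out 1 RNA sample. Interactions had 40 (liver minus kidney), 3 (liver minus hypothalamus) and 35 (kidney minus hypothalamus), and 74, 6 and 64 with the replicate block; 0.25 times the pseudocount gave 1 and 23 for both with hypothalamus, and 4 times gave 0 for liver minus hypothalamus. The replicate block changed no other call of the 7 genes than those given with them.

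Uncalled differences that turned sign were, between hypothalamus sexes, Fabp7 (0.062 on first arrays) and Fabp3 (-0.0089 on technical replicate arrays); under median centring, Fabp5 between liver and hypothalamus (0.14) and Fabp7 between kidney and hypothalamus (0.053, and 0.078 without number 1); and under quantile normalization, Fabp5 between liver and ovary (-0.032). Leaving out 1 RNA sample gave ranges of -0.37 to 0.17 (Fabp4), -0.078 to 0.49 (Fabp5) and -0.57 to 0.13 (Fabp7) between liver sexes, -0.14 to 0.0022 (Fabp3) and -0.46 to 0.16 (Fabp4) between kidney sexes, and -0.0063 to 0.20 (Fabp3), -0.087 to 0.19 (Fabp5) and -0.19 to 0.17 (Fabp7) between hypothalamus sexes. They were -0.51 to 0.0059 for Fabp7 between kidney and hypothalamus and -0.29 to 0.78 for Fabp4 between liver and testis. The cause was not tested. With 3 RNA samples a group, small sex differences cannot be told from none, and signal near the filter level gives only bounds.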
